A study of Mus musculus with 10 samples.

Results

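This comparison sets macrophages treated with R848 against macrophages treated with vehicle, both for 4 hours, and it comprises 4 of the 10 libraries of the series and 11978 of the 55573 genes in the deposited table. The genes are those with at least 1 CPM, a read count scaled to a fixed library total, in at least 2 of all 10 libraries, so that genes raised and genes lowered by R848 could both enter. The cells of every group were bone marrow–derived macrophages (BMDMs) grown with M-CSF from WT female C57BL/6 mice. The R848 group received 1 ng/mL R848 and the vehicle group received vehicle, whose composition the sources used here do not give. The other 3 groups, each also with 2 libraries and 4 hours of treatment, received 5 μg polyU, PNPi+dG/rG or PNPi+dG/rG+polyU. PolyU is a synthetic single-stranded RNA of uridines that was complexed with the lipid DOTAP, and PNPi+dG/rG stands for 5 μM deoxyguanosine and 5 μM guanosine together with 1 μM ulodesine, which blocks purine nucleoside phosphorylase. The PNPi+dG/rG+polyU group reaches TLR7 by nucleoside and RNA ligands together, and it is set beside R848 below by a direct test or by its values. The labels call the libraries biological replicates and nothing else says that they came from separate mice or cultures, so p-values measure the spread between these libraries only. BMDMs are a culture model of primary macrophages, and in such bulk samples fewer cells of a type and less RNA per cell cannot be told apart.

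TLR7 is an endosomal receptor of macrophages and dendritic cells that senses guanosine or deoxyguanosine at one site and short uridine-rich single-stranded RNA at another. R848 (resiquimod) is a synthetic imidazoquinoline that occupies the nucleoside site and activates the receptor without RNA. TLR7 signals through the adaptor MyD88 and the IRAK kinases to TRAF6. From there NF-κB, the MAP kinases and IRF5 drive inflammatory cytokine genes and IRF7 drives IFN genes. NF-κB dimers are held in the cytoplasm by IκB proteins, whose genes are themselves NF-κB targets, so the pathway also induces its own inhibitors.

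The vehicle libraries held 17820951 and 17798370 reads on genes and the R848 libraries 18831297 and 32659501, and 3 reads, taken as the smallest detectable amount, were worth between 0.0919 and 0.169 CPM in these 4. These limits cover counting error only, and they are lowest in R848 replicate 2. Macrophage marker genes summed to 27784 and 28290 CPM with vehicle and 28793 and 29416 CPM with R848. Of these 15 markers, 3 were called higher, 2 lower and 10 neither, so the level sum covers members that moved in opposite directions. Among the markers of other cells, several lists moved with the treatment. The 15 fibroblast markers summed to 0.954 and 1.80 CPM with vehicle and to 189.8 and 201 CPM with R848. Of the 11 that passed the limit on low values 10 did so only through the R848 libraries, so that a count of calls would say nothing more, while Lum and Thy1 stayed at or below 2 reads in each of the 4 libraries. The endothelial markers summed to 246 and 239.8 CPM with vehicle and 64.8 and 70.2 CPM with R848, nearly all of it from Kdr and Vwf, and the defining marker Cldn5 had 0 reads. Neutrophil markers summed to 18.7 and 19.2 and 63.9 and 65.4 CPM with Ly6g at 0 reads, with S100a8, Camp and Mmp8 called higher and S100a9 and Ngp lower. The mast cell, basophil and erythroid markers summed to 13.9 and 14.4 CPM with vehicle and 0.690 and 1.01 CPM with R848, nearly all of it from Kit. The T and NK cell markers summed to 10.9 and 14.8 CPM and 4.99 and 5.17 CPM, where Cd4 was called lower, and the T cell genes Cd3d and Cd3e were at 0 reads. The part of these other-cell markers in the results was not tested.

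**Figure D1:**
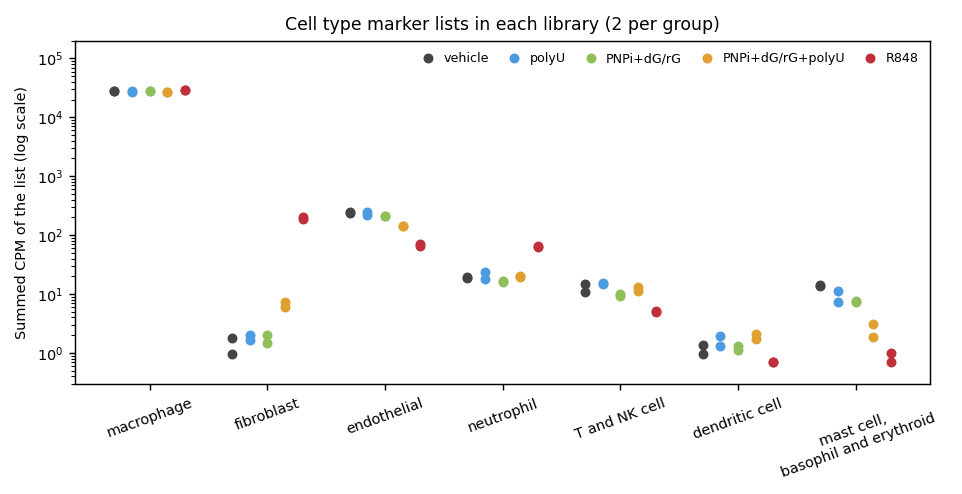
Summed CPM (log axis) of 7 lists of cell type markers in each of the 10 libraries, one point per library. The macrophage sum lies at a like level in all groups, although single members moved both ways. The fibroblast sum is 0.954 and 1.80 CPM with vehicle and 189.8 and 201 CPM with R848.

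R848 changed 4698 of the 11978 genes at an adjusted p under 0.05 (limma, Benjamini-Hochberg) and at least 2-fold, and most of them went down. There were 1065 genes called higher (8.89% of those tested) and 3633 called lower (30.3%). In each of these genes both R848 libraries lay on the same side of both vehicle libraries. The rule for calling a gene all but required this, so it is no added support. By the ratio of mean CPM, with a mean under 3 reads in each library of its group raised to that level, a rise of at least 10-fold was seen for 312 genes and a fall of at least 10-fold for 543. Rises of at least 100-fold numbered 47 and falls of that size 55. The called genes that rose held 6.23% and 5.72% of the reads with vehicle and 29.5% and 27.9% with R848, while those that fell went from 22.5% and 22.7% of reads to 6.50% and 6.68%. CPM divides by a fixed total, so a larger share of reads in raised genes leaves a smaller share for the others. The 100 largest rises held 5.08% and 5.10% of reads with R848. How far this scaling accounts for the falls was not tested. The median log2 difference over all genes tested was -0.50, and centring each library on its own median gene moved it by 0.59. With centring, 1792 genes were called higher and 2107 lower, so that 46.0% of calls were higher against 22.7% without it. All 1065 genes called higher stayed so, and 2107 of the 3633 called lower did. Where centring changes the counts of a gene group, the changed counts are given beside it.

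**Figure D2:**
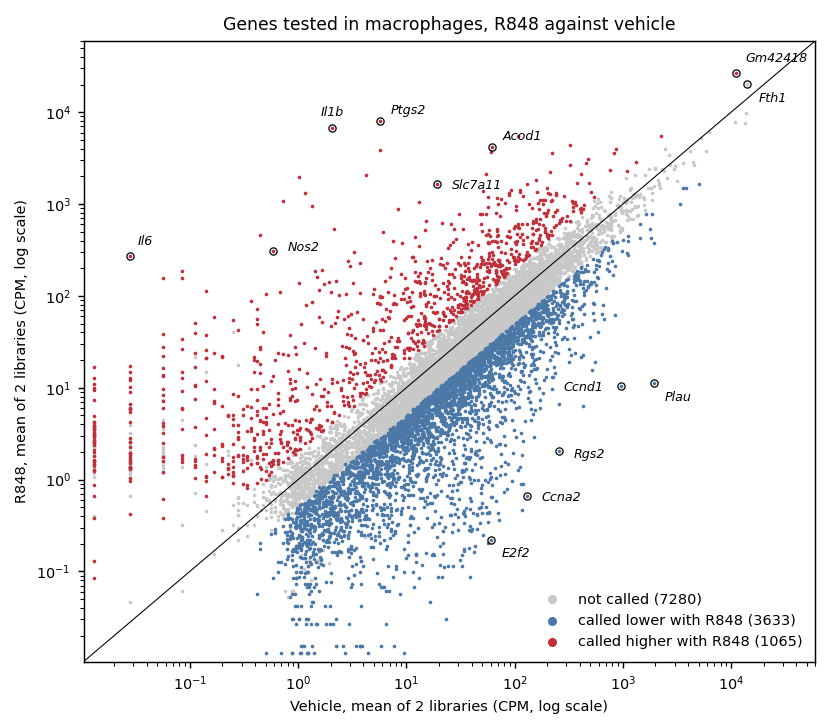
Mean CPM of the 2 R848 libraries against mean CPM of the 2 vehicle libraries for the 11978 genes tested (both axes log, values of 0 drawn at the level of less than 1 read). The 1065 genes called higher lie above the diagonal and the 3633 called lower below it, with Il1b and Il6 at the upper edge and cell cycle genes such as Ccna2 at the lower.

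Ranked by the same bounded ratio, among called genes with at least 10 CPM in both R848 libraries, the 15 largest rises were Il1b, Il1a, Il6, Cxcl1, Ptgs2, Cxcl3, Csf3, Serpinb2, Adamts4, Shisa3, Il12b, Cxcl2, Edn1, Nos2 and Socs3. Together they held 0.0023% and 0.0024% of reads with vehicle and 2.80% and 2.73% with R848. Il1b (chr2:129364570-129371139 in GRCm38), which encodes the pyrogenic cytokine IL-1β, read 2.13 and 1.97 CPM with vehicle and 6558 and 6751 CPM with R848, a 3259.6-fold ratio of pooled reads and a log2 difference 11.67 ± 0.084 SE (adjusted p = 1.2e-20, limma). Il1b stood among the 10 genes with the most reads after R848, beside Ptgs2, Ccl3 and Apoe, which also rose, and beside the housekeeping or macrophage genes Fth1, Ctsb, Lyz2, Gpnmb and Actb, none of which passed the 2-fold limit. The most-read entry was Gm42418, which overlaps ribosomal RNA and took 1.35% and 0.869% of reads with vehicle and 3.71% and 1.61% with R848, and it was called higher although its R848 replicates differed from each other by more than 2-fold.

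The receptor gene itself stayed under the 2-fold limit, and the genes just below it in the pathway moved both ways. Of the 27 genes of TLR7 trafficking and signalling tested, 6 were called higher, 4 lower and 17 neither (9 higher and 2 lower with centring), with a median log2 difference of 0.10 beside -0.50 over all genes. The share lower was 14.8%, beside 30.3% of all genes. Tlr7 read 166 and 142 CPM with vehicle and 205 and 214 CPM with R848, under the 2-fold limit. Its trafficking chaperone Unc93b1 read 564 and 588 CPM with vehicle and 548 and 577 CPM with R848. Tlr8, its closest relative, rose from 89.4 and 76.8 to 193 and 202 CPM (log2 difference 1.25 ± 0.064 SE, adjusted p = 3.6e-11, limma). The adaptor gene Myd88 rose from 74.5 and 73.7 to 176 and 195 CPM and the kinase gene Irak2 from 60.8 and 65.0 to 278 and 284 CPM. Ikbke, which encodes the IKK-related kinase IKKε, had the largest rise of the list, from 86.5 and 89.95 to 508 and 519 CPM (log2 difference 2.54 ± 0.044 SE). Ikbkb rose 2.34-fold and Tab2 2.10-fold. On the lower side, Irf5, the transcription factor that TLR7 activates for cytokine genes, fell from 273 and 303.3 to 68.2 and 70.7 CPM (log2 difference -2.05 ± 0.063 SE, adjusted p = 2.3e-13, limma). Tab1 fell as well, and both calls stood after centring. Slc15a4, a lysosomal transporter needed for TLR7 signalling in several cell types, and Cnpy3, a chaperone of Toll-like receptors, were called lower (from 61.9 and 69.1 to 31.2 and 31.4 CPM for Slc15a4), but neither was with centring.

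Among the other Toll-like receptors, those for bacterial lipopeptides rose and the endosomal Tlr9 and Tlr13 fell. Tlr2, which pairs with Tlr1 or Tlr6 to bind bacterial lipopeptides, rose from 53.0 and 59.3 to 923 and 937 CPM (log2 difference 4.05 ± 0.084 SE, adjusted p = 4.2e-12, limma), and Tlr1 rose from 33.6 and 31.0 to 170.1 and 171 CPM. Cd14, their co-receptor, rose from 466 and 482 to 2985 and 3136 CPM. Tlr13, an endosomal sensor of bacterial ribosomal RNA, fell from 650.3 and 658 to 80.0 and 77.8 CPM (log2 difference -3.05 ± 0.044 SE), and Tlr9, the endosomal DNA sensor, from 17.5 and 16.1 to 3.88 and 3.70 CPM. Cd180, a surface homolog of TLR4, fell from 843 and 832 to 57.5 and 65.5 CPM. Tlr4 itself read 95.5 and 83.8 CPM with vehicle and 84.7 and 85.8 CPM with R848. Of the 14 tested members of this list, 4 were called higher and 3 lower (7 and 3 with centring). These shares were 28.6% higher and 21.4% lower, beside 8.89% and 30.3% of all genes.

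NF-κB genes rose almost without exception. Of the 11 genes for NF-κB subunits and IκB proteins, 10 were called higher and none lower, with a median log2 difference of 2.88, and the remaining gene, Nfkbid, read 29.6 and 32.3 CPM with vehicle and 38.4 and 40.2 CPM with R848. Nfkbia, which encodes IκBα, rose from 90.4 and 96.2 to 1386 and 1429.7 CPM (log2 difference 3.92 ± 0.065 SE, adjusted p = 4.1e-15, limma). Nfkbiz, whose product IκBζ is a nuclear coactivator needed for Il6 and Il12b, rose furthest, from 13.1 in both to 1051 and 1059.7 CPM (log2 difference 6.33 ± 0.078 SE). Bcl3, another nuclear IκB, rose from 10.998 and 12.1 to 245 and 278 CPM. Among the subunits, Nfkb2 rose from 75.0 and 86.7 to 1009 and 1031 CPM and Rela, the transactivating partner, from 109 and 115 to 244 and 255 CPM.

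Many genes that restrain the pathway rose with it, 10 of the 20 tested, and 3 fell (10 and 2 with centring). These shares were 50% higher and 15% lower, beside 8.89% and 30.3% of all genes. Tnfaip3, the ubiquitin-editing enzyme A20, rose from 107 and 116 to 1411 and 1454 CPM and its partner Tnip1 from 112 and 115 to 1337 and 1397 CPM. Irak3, a catalytically inactive IRAK that blocks MyD88 signalling, rose from 34.1 and 32.1 to 535 and 541 CPM (log2 difference 4.02 ± 0.053 SE, adjusted p = 4.7e-18, limma). Socs3, which shuts off signalling by IL-6 family receptors, was among the 15 largest rises of all genes and went from 4.601 and 3.82 to 2023 and 2152 CPM. Socs1 reached 96.8 and 106 CPM from 2.69 and 2.08 CPM, and Il10, the anti-inflammatory cytokine, 109 and 110.2 CPM from 2.02 and 1.97 CPM. Atf3, a repressor of TLR target genes, fell from 295 and 320.1 to 73.4 and 78.1 CPM (log2 difference -2.02 ± 0.068 SE). Of the 10 MAP kinase phosphatase genes tested, 3 were higher and 5 lower (3 and 3 with centring). The share lower was 50%, beside 30.3% of all genes. Dusp16 rose from 25.6 in both to 595 and 607 CPM and Dusp1 from 100.3 and 111 to 452 and 488 CPM, whereas Dusp4 fell from 332 and 342 to 93.1 and 86.5 CPM. Dusp6 and Dusp7 were called lower only without centring. Of the factors that destroy cytokine mRNAs, Zc3h12a (regnase-1) rose from 25.3 and 29.8 to 507 and 558 CPM and Zfp36 (tristetraprolin) from 145 and 149.7 to 643 and 664 CPM, while its relative Zfp36l2 fell from 497 and 508 to 35.8 and 35.1 CPM (log2 difference -3.82 ± 0.12 SE).

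AP-1 genes divided by family member at this time. Fosl2 rose from 66.8 and 71.1 to 528 and 545 CPM, Junb from 175 and 194 to 979 and 1038 CPM and Batf from 3.31 and 3.65 to 62.8 and 71.0 CPM. The immediate early genes Fos and Jun fell, Fos from 193 and 192 to 73.7 and 78.3 CPM and Jun from 295 and 316 to 94.8 and 98.3 CPM, although Fos was not called lower with centring. Fosb fell from 6.57 and 6.69 to 0.266 and 0.337 CPM (log2 difference -4.47 ± 0.46 SE). In all, 6 of 15 tested were higher and 6 lower (8 and 3 with centring). Each share was 40%, beside 8.89% higher and 30.3% lower over all genes.

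Inflammatory cytokine genes had the highest median rise of the lists examined apart from the fibroblast markers. Of 27 genes on the list, 26 were in the table and 24 passed the limit on low values, and 22 of those 24 were called higher and none lower, both with and without centring. Of the 24, 4 (Il23a, Il19, Lif and Csf2) passed only through the R848 libraries. Their median ratio was 5.53 on the log2 scale, with vehicle means under 3 reads in each library raised to that level. Il6 (chr5:30013114-30019981), which drives the acute phase response, had 1 and 0 reads in the vehicle libraries and 279 and 265 CPM with R848, so its ratio of pooled reads, 9618-fold, had a counting interval of 1726 to 379930 and its size is uncertain (adjusted p = 0.0026, limma). Il1a read 1.01 CPM in both libraries with vehicle and 2020.1 and 1954 CPM with R848 (log2 difference 10.94 ± 0.34 SE, adjusted p = 9.4e-08, limma). Tnf, already expressed with vehicle, rose from 53.2 and 56.4 to 2167 and 2064 CPM (log2 difference 5.27 ± 0.073 SE, adjusted p = 1.1e-14, limma). Il12b, the shared p40 subunit of IL-12 and IL-23, rose from 1.29 and 1.405 to 956 and 954 CPM, and its partner subunit genes Il12a and Il23a read 3.35 and 2.79 CPM and 9.72 and 9.68 CPM with R848. Il12a had 0 reads in both vehicle libraries and was at least 18.2-fold higher with R848, taking 3 reads in each vehicle library as the limit. The other IL-12 family gene Il27 rose from 0.673 and 0.674 to 108 and 113 CPM and its partner Ebi3 from 46.6 and 50.4 to 215 and 230.2 CPM. Per kilobase of exon, Il12b stood at 486 CPM with R848, Il12a at 1.80 and Il23a at 4.32. Growth factors of granulocytes and macrophages joined the group. Csf3 (G-CSF) reached 189 and 188 CPM from 0 and 3 reads with vehicle, and Csf2 (GM-CSF) 4.51 and 3.89 CPM from 0 reads, at least 24.9-fold higher. Inhba, Lif and Il19 also rose, Inhba from 0.449 and 0.562 to 110.3 and 98.7 CPM. The 2 members that did not pass were Tgfb1, at 556 and 588 CPM with vehicle and 541 and 580 CPM with R848, and Ifnb1. Ifnb1, the first IFN that macrophages make, had 0 and 3 reads in the R848 libraries and 1 and 0 with vehicle, which is at the limit of detection, whereas it read 1.34 and 1.06 CPM with PNPi+dG/rG+polyU.

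Chemokine genes rose in most cases, led by those that recruit neutrophils. Of 23 tested, 17 were higher and 1, Cxcl14, lower (18 and none with centring). Of the 23, 2 passed the limit on low values only through the R848 libraries. Cxcl1 rose from 0.729 and 0.730 to 1118 and 1063 CPM (log2 difference 10.54 ± 0.16 SE, adjusted p = 2.0e-14, limma), Cxcl2 from 5.61 and 5.79 to 4002 and 3690.1 CPM and Cxcl3 from 1.29 and 1.01 to 1358 and 1298 CPM. Cxcl5 reached 3.03 and 2.79 CPM from 0 reads. With Pf4, which rose from 27.0 and 31.5 to 101 and 108 CPM, these genes lie side by side on chromosome 5 (90759360 to 90905938 in GRCm38), with no unchanged tested gene among the 5. Ccl3 and Ccl4, neighbours on chromosome 11 that attract monocytes and T cells, rose from 111 and 106 to 5406 and 5639 CPM and from 56.0 and 58.5 to 1157 and 1229 CPM. Ccl5 rose from 46.0 and 51.7 to 558 and 648 CPM. The monocyte chemokines Ccl2 and Ccl7 did not pass, with Ccl2 at 374 and 334 CPM with vehicle and 246 and 255 CPM with R848.

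Promoters of 5 raised genes are shown because NF-κB is the main arm of the pathway and the genes range from neutrophil chemokines to the inhibitor IκBα. Each is the 250 bases upstream of the RefSeq start in GRCm38.p6, read 5′ to 3′ on the coding strand, with matches to the NF-κB consensus in capitals and positions counted back from the start. The first capital stands at position -71 for Cxcl1 (chr5:90890995-90891244, plus strand), -97 for Cxcl2 (chr5:90903649-90903898, plus strand), -73 for Cxcl3 (chr5:90785851-90786100, plus strand), -44 for Il6 (chr5:30012864-30013113, plus strand) and -29 for Nfkbia (chr12:55492648-55492897, minus strand). The RefSeq and GENCODE starts differ by 4 bases for Cxcl1, by 28 for Cxcl2 and by 2 for Cxcl3, and coincide for Il6 and Nfkbia.
Cxcl1: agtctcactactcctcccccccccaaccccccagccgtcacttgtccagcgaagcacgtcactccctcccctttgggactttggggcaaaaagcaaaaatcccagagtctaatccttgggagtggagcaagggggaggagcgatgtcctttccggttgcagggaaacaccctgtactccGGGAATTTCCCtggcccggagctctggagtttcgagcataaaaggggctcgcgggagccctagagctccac
Cxcl2: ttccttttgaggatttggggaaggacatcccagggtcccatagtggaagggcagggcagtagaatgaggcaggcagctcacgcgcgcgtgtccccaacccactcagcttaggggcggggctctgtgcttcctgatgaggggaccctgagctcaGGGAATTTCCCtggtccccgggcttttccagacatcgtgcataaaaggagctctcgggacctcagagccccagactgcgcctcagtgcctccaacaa
Cxcl3: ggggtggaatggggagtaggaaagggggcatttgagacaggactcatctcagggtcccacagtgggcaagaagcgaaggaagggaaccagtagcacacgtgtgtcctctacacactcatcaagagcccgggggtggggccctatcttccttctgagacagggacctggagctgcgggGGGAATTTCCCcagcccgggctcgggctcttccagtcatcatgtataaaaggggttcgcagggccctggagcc
Il6: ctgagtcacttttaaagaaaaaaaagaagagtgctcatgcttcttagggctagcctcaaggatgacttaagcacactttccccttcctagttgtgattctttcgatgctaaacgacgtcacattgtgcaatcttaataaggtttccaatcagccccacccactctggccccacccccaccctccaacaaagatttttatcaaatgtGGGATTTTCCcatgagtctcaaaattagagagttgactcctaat
Nfkbia: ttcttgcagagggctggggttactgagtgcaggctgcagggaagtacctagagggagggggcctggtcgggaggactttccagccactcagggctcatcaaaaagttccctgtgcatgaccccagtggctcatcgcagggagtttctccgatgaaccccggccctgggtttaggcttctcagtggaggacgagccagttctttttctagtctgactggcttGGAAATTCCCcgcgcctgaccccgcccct

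Over all promoters of that RefSeq table, 7.25% of 32851 held the NF-κB consensus on either strand in these 250 bases. It was found in 8.85% of the 9219 tested genes that matched the table, in 14.9% of the 772 called higher and in 8.33% of the 2784 called lower. Among genes raised at least 10-fold the share was 19.7% of 233. The cytokine list had it in 7 of 17 promoters (41.2%) and the NF-κB and IκB genes in 4 of 8. Several of the strongest genes, among them Il1b, Il1a, Ptgs2, Il12b and Tnf, had no match in this window. A match is a match of letters only, and regions further away were not searched.

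Receptors for these signals moved in both directions. Fpr1 and Fpr2, which detect bacterial formyl peptides, rose from 1.96 and 1.35 to 186 and 196 CPM and from 1.46 and 0.899 to 77.6 and 81.3 CPM. Ccrl2 rose from 7.52 and 6.01 to 105 and 113 CPM. Cnr2, the cannabinoid receptor of immune cells, was one of the 15 largest falls of all genes, from 40.6 and 44.6 CPM to 1 and 9 reads (0.0531 and 0.276 CPM). Gpr183, a receptor for oxysterols, fell from 23.3 and 29.3 to 0.266 and 0.276 CPM (log2 difference -6.60 ± 0.18 SE, adjusted p = 1.3e-14, limma). Cx3cr1 and Cxcr4 also fell, Cxcr4 from 87.8 and 88.3 to 8.44 and 8.05 CPM. In total 6 of the 16 tested chemoattractant receptors were higher and 7 lower (7 and 6 with centring). These shares were 37.5% higher and 43.75% lower, beside 8.89% and 30.3% of all genes. Of the 27 cytokine receptors tested, 10 were higher and 5 lower (13 and 4 with centring). The share lower was 18.5%, beside 30.3% of all genes, and 1 of the 27 passed the limit on low values only through the R848 libraries. Tnfrsf1b (TNFR2) rose from 314 and 331 to 4248 and 4455 CPM and Il4ra from 68.5 and 70.7 to 451 and 478 CPM, while Il7r fell from 410 and 368 to 47.7 and 46.3 CPM and both TGF-β receptor genes, Tgfbr1 and Tgfbr2, fell 3.21-fold and 3.46-fold. Csf1r, the receptor for the M-CSF in the medium, read 2139.7 and 2206 CPM with vehicle and 1654 and 1727 CPM with R848.

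Genes induced by type I IFN moved far less than the cytokine genes. Of the 42 on the list, all tested, 19 were called higher and none lower (31 and none with centring), with a median log2 difference of 0.74. The strongest was Usp18, a negative regulator of the IFN receptor, which rose from 29.3 and 18.8 to 130.2 and 164 CPM (log2 difference 2.63 ± 0.23 SE, adjusted p = 7.5e-05, limma). Mx1, an antiviral GTPase, rose from 11.4 and 9.38 to 35.9 and 42.0 CPM and Isg15, a ubiquitin-like modifier, from 19.4 and 16.4 to 77.6 and 90.3 CPM. Parp14 rose from 194 and 177 to 758 and 849 CPM, and Zbp1, a sensor of Z-form nucleic acids, from 24.1 and 22.98 to 115 and 140.5 CPM. Rsad2 (viperin) rose from 72.7 and 59.6 to 146 CPM in both libraries. Ifit2 and Irf7 were not called, with Ifit2 at 58.6 and 45.3 CPM with vehicle and 81.9 and 86.4 CPM with R848 and Irf7 at 265 and 263 and 218 and 241 CPM. Vehicle replicate 1 read higher than replicate 2 for several of these genes, for example 39.2 and 25.0 CPM for Ifit1, which rose to 143 and 167 CPM.

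R848 and PNPi+dG/rG+polyU were then compared directly. Over all genes, 462 (3.86%) were called higher with R848 and 2019 (16.9%) lower, with a median log2 difference of -0.31 (0.069 after centring), and centring changed the higher share of calls from 18.6% to 41.6%. None of the 42 IFN-induced genes was higher with R848 and 28 were lower, with a median of -1.24. With centring 17 were lower and the median was -0.86. Against polyU alone, also complexed with DOTAP, none of the 42 was higher with R848 and 16 were lower, with a median of -0.66 without centring. The list summed to 8094 and 8936 CPM with polyU and 5558.5 and 6219 CPM with R848. The difference from PNPi+dG/rG+polyU was thus present in part with polyU alone. Mx1 read 35.9 and 42.0 CPM with R848 and 482 and 440.2 CPM with PNPi+dG/rG+polyU (log2 difference -3.57 ± 0.11 SE, adjusted p = 2.5e-11, limma). Rsad2 read 146 in both and 1415 and 1347 CPM, and Ifit2 81.9 and 86.4 and 762 and 738 CPM. The same held for Cxcl10, an IFN-inducible chemokine, at 91.4 and 93.1 CPM with R848 and 805 and 778 CPM with PNPi+dG/rG+polyU (10.998 and 6.91 CPM with vehicle). NF-κB genes gave a different picture, with none of the 11 called in either direction and a median of 0.28 (2 higher with centring). Among the cytokines, 6 of 24 were higher with R848 and 1, Ifnb1, lower (7 and none with centring). The 24 include 4, Il23a, Il19, Lif and Csf2, that passed the limit on low values only through the R848 libraries. Ifnb1 was at the limit of detection with R848, so these counts are in part set by how genes entered. Il1b read 6558 and 6751 CPM with R848 and 661 and 736 CPM with PNPi+dG/rG+polyU (log2 difference 3.25 ± 0.084 SE, adjusted p = 5.0e-14, limma), and Il1a 2020.1 and 1954 and 156 and 173 CPM. Tnf read 2167 and 2064 and 3415 and 3154 CPM and Il12b 956 and 954 and 1801 and 1847 CPM, both under the 2-fold limit. The doses of the agents are not matched in strength, so these are differences between treatments as given.

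**Figure D3:**
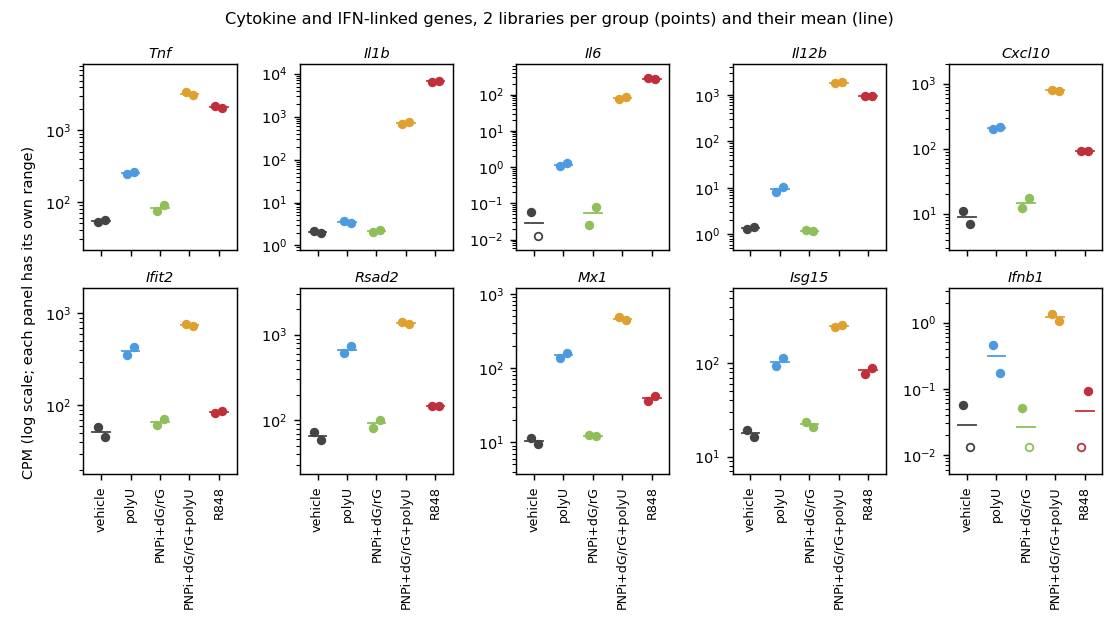
CPM (log axis) of 4 cytokine genes, Cxcl10, 4 IFN-induced genes and Ifnb1 in each library of the 5 groups, with open points for 0 reads. Cytokine genes with R848 lie at or above the level with PNPi+dG/rG+polyU except Tnf and Il12b, while Mx1 lies at 35.9 and 42.0 CPM with R848 and 482 and 440.2 CPM with PNPi+dG/rG+polyU.

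Guanylate-binding proteins (GBPs) and immunity-related GTPases, which attack vacuoles that hold pathogens, rose against vehicle and were lower than with PNPi+dG/rG+polyU. Of 14 tested, 10 were higher and 1 lower against vehicle (12 and 1 with centring), and none higher and 9 lower against PNPi+dG/rG+polyU (none and 8 with centring). Gbp5 rose from 3.87 and 2.70 to 294 and 310.5 CPM (log2 difference 6.55 ± 0.16 SE, adjusted p = 2.8e-10, limma), the largest rise of the list, and read 406 CPM in both libraries with PNPi+dG/rG+polyU. Gbp2, Gbp3 and Gbp7, its neighbours on chromosome 3, rose 11.4-fold, 16.3-fold and 13.3-fold. Iigp1 read 1.80 and 1.35 CPM with vehicle and 3.82 and 3.46 CPM with R848 and 28.0 and 29.3 CPM with PNPi+dG/rG+polyU. Gbp8 alone fell, from 1.07 and 1.24 to 0.159 and 0.122 CPM. The ISRE, the element bound by IFN-activated factors (GAAA, any 2 bases and GAAA again, on either strand), stood in 12 of 31 promoters of the IFN list (38.7%) and in 2.98% of all promoters of the table.

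Costimulatory genes rose, while the calls among MHC class II genes depended on the scale. MHC class II genes had none of 8 tested higher and 4 lower (none lower with centring). The share lower was 50%, beside 30.3% of all genes. Cd74, the invariant chain, read 695 and 777 CPM with vehicle and 316 and 341 CPM with R848 and H2-Aa 107 and 114 and 36.9 and 43.6 CPM. Of 23 class I genes 5 were higher (11 with centring), with H2-Q6 at 14.03 and 15.6 CPM with vehicle and 103 and 100.03 CPM with R848. The H2-Q genes are near-identical copies and their reads could be split between them. Costimulatory and checkpoint ligands had 10 of 14 tested higher and 1 lower. Cd40, through which T cells license macrophages, rose from 14.4 and 15.2 to 499 and 538 CPM (log2 difference 5.13 ± 0.077 SE, adjusted p = 9.8e-17, limma). Cd274 (PD-L1) rose from 55.3 and 54.3 to 771 and 794 CPM and the adhesion ligand Icam1 from 64.9 and 72.3 to 1111 and 1208 CPM. Cd80 rose from 9.88 and 10.3 to 27.5 and 26.7 CPM, whereas its twin ligand Cd86 read 17.9 and 18.99 CPM with vehicle and 14.3 and 14.1 CPM with R848. Cd276 (B7-H3) fell from 17.8 and 17.0 to 2.39 and 2.30 CPM.

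Among metabolic genes, many of glycolysis, itaconate and nitric oxide rose, while few of the TCA cycle and respiratory chain were called. Acod1, which makes the antimicrobial metabolite itaconate, rose from 62.3 and 62.1 to 4112 and 4274 CPM (log2 difference 6.07 ± 0.10 SE, adjusted p = 4.7e-10, limma). Nos2, inducible nitric oxide synthase, rose from 0.449 and 0.730 to 288 and 321 CPM, and the arginine transporter Slc7a2 that feeds it from 50.7 and 45.2 to 783 and 788 CPM. Gch1, which makes the NOS2 cofactor tetrahydrobiopterin, rose from 34.5 and 33.6 to 161 and 168 CPM. Altogether 6 of the 11 genes of this list were higher and none lower (7 and none with centring). Of the 11, 1 passed the limit on low values only through the R848 libraries. Glucose uptake and the control points of glycolysis rose, in that Slc2a1 (GLUT1) went from 112 and 120.1 to 581 and 622 CPM, Pfkfb3 from 71.5 and 77.3 to 1096 and 1163 CPM and Hif1a, the transcription factor that drives them, from 201 and 197 to 812 and 794 CPM. The lactate exporter gene Slc16a3 rose from 101 and 99.1 to 556 and 598 CPM. Pkm and Aldoa stayed under the limit, with Aldoa at 1150.4 and 1236 and 1431 and 1539 CPM. In total 8 of 22 glycolysis genes were higher and 2, Slc2a3 and Hk3, lower (12 and 1 with centring). Gapdh is counted among the 8, but its reads are shared with many pseudogenes. The direct test against PNPi+dG/rG+polyU called 6 of these 22 higher with R848 and 1 lower (11 and 1 with centring), and Slc2a1 read 157 and 161 CPM there. In the TCA cycle 3 of 24 genes were lower and none higher (1 and 1 with centring), below the 30.3% lower over all genes, with Idh2 from 97.4 and 95.96 to 23.8 and 25.6 CPM, and none of 37 nuclear genes of the respiratory chain was called (1 higher with centring).

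Prostaglandin synthesis rose at the inducible enzymes and fell at the constitutive and leukotriene ones. Ptgs2 (COX-2) rose from 5.27 and 6.12 to 8309 and 7791 CPM (log2 difference 10.47 ± 0.15 SE, adjusted p = 4.5e-10, limma) and was the fourth most-read gene of the R848 libraries. Ptges, the synthase for prostaglandin E2, rose from 7.74 and 9.16 to 857 and 891 CPM, and Pla2g4a, the phospholipase that frees arachidonic acid, from 69.1 and 67.0 to 185 and 188 CPM. Ptgs1 (COX-1) fell from 9.54 and 7.42 to 1.59 and 1.44 CPM. The leukotriene gene Alox5 fell from 8.87 and 7.25 to 0.584 and 0.857 CPM, and Hpgd, which degrades prostaglandins, from 3.48 and 4.72 to 0.319 and 0.184 CPM. Of 13 tested, 3 were higher and 8 lower (4 and 4 with centring), or 23.1% and 61.5%, beside 8.89% and 30.3% of all genes. Among the antioxidant genes 7 of 22 were higher and 1 lower (10 and none with centring). Slc7a11, the cystine importer, rose from 19.2 in both to 1686 and 1614 CPM (log2 difference 6.42 ± 0.088 SE), Sod2 from 134 and 126 to 1649.6 and 1696 CPM, and the regulator gene Nfe2l2 (NRF2) from 270.2 and 271 to 654 and 656 CPM. Of the targets of NRF2, Txnrd1 rose from 540.1 and 549 to 1188 and 1196 CPM, and Nqo1, Gclc and Srxn1 did not pass the limit.

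Genes that dissolve or rebuild the extracellular matrix rose, and they stand beside the fibroblast markers. Of 23 tested, 15 were higher and 3 lower (16 and 2 with centring), and Mmp2 and Timp3 passed the limit on low values only through the R848 libraries. Against PNPi+dG/rG+polyU 13 were higher and 1 lower (14 and 1 with centring), with a median log2 difference of 2.02. Mmp13, a collagenase, rose from 17.2 and 13.5 to 650.2 and 668 CPM and Mmp14, a membrane-bound protease, from 158 and 163 to 1309 and 1368 CPM. Mmp9 (gelatinase B) rose from 10.8 and 11.7 to 111 and 109 CPM. Thbs1 (thrombospondin-1) rose from 6.90 and 8.09 to 389.9 and 401 CPM and Fn1 (fibronectin) from 1.12 and 1.57 to 85.8 and 87.7 CPM (log2 difference 6.03 ± 0.25 SE, adjusted p = 2.3e-12, limma). With PNPi+dG/rG+polyU, Fn1 read 0.849 and 0.633 CPM. Timp3, a protease inhibitor, had 0 and 3 reads with vehicle and 36.4 and 31.0 CPM with R848. In the same libraries the fibroblast collagens rose, Col1a1 from 0.112 and 0.393 to 51.6 and 58.3 CPM and Col6a1 from 0 reads to 11.8 and 13.99 CPM, along with Pdgfrb from 0.112 and 0.169 to 36.8 and 39.1 CPM and Postn from 0.0561 and 0 to 11.9 and 12.1 CPM. The list sum was 6.02 and 7.18 CPM with PNPi+dG/rG+polyU, and the part of fibroblast RNA in the matrix results was not tested. Plau, the urokinase gene, fell from 1885 and 1999 to 10.7 and 11.9 CPM (log2 difference -7.43 ± 0.076 SE, adjusted p = 5.9e-16, limma), while its receptor gene Plaur rose from 144 and 150.1 to 466 and 470.3 CPM. Adam8 fell from 3294 and 3406 to 997 and 1003 CPM.

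The cytoskeleton genes that change cell shape moved with them. Of 21 actin, podosome and integrin genes 8 were higher and 1 lower (12 and 1 with centring). Marcksl1 rose from 124 and 117 to 1157 and 1285 CPM, Vasp from 196 and 209 to 1297 and 1371 CPM and the bundling protein gene Fscn1 from 0.0561 and 0.787 to 71.6 and 73.9 CPM. Itgal, a subunit of LFA-1, rose from 241 and 239.5 to 1304 and 1328 CPM and Itga6, a laminin receptor subunit, fell from 315 and 313 to 54.4 and 48.5 CPM.

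The lowest medians among lists with more than 1 tested gene were those of cell division genes. All 40 genes of DNA replication and S phase and all 40 of mitosis passed the limit on low values and all 80 were called lower, with median log2 differences of -3.92 and -6.62 beside -0.50 over all genes. With centring 38 and 40 remained lower. Against PNPi+dG/rG+polyU 39 and 40 were lower, with medians of -3.05 and -5.97 (34 and 40 with centring). BMDMs divide in culture with M-CSF, and the vehicle libraries held these transcripts in number. In S phase, Mcm5, a subunit of the replicative helicase, fell from 200.2 and 189.9 to 12.9 and 13.01 CPM (log2 difference -3.91 ± 0.055 SE, adjusted p = 8.3e-18, limma). Mcm10 fell from 51.2 and 49.3 to 0.690 and 0.184 CPM and Rrm2, the ribonucleotide reductase subunit that supplies deoxynucleotides, from 124 and 114 to 0.850 and 0.919 CPM (log2 difference -7.07 ± 0.099 SE). Pcna fell least among the well-known members, from 240.2 and 235 to 54.7 and 57.5 CPM. Gins4 and Pola2 were the 2 not called lower with centring. In mitosis, Cdk1 fell from 105 and 103 to 2.76 and 3.001 CPM (log2 difference -5.17 ± 0.073 SE, adjusted p = 7.9e-18, limma) and its cyclin gene Ccnb1 from 14.5 and 13.6 to 0.0531 and 0.184 CPM. Ccna2 (cyclin A2) fell from 144 and 115 to 0.743 and 0.582 CPM (log2 difference -7.61 ± 0.17 SE) and Plk1 from 60.2 and 56.4 to 0.584 and 0.276 CPM. Top2a, the topoisomerase of dividing cells, fell from 459 and 404 to 6.96 and 5.79 CPM. Mki67, the usual marker of cycling cells, fell from 746 and 655 to 123 and 121 CPM and so kept far more of its transcript than Ccna2.

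By the bounded ratio, among called genes with at least 10 CPM in both vehicle libraries, the 15 largest falls were Pbk, E2f2, Knl1, Kif18b, Cnr2, Anln, E2f7, Aspm, Kif14, Nek2, Dtl, Hmmr, Ccsap, Clspn and Ccna2, and all but Cnr2 encode proteins of replication, mitosis or the spindle or E2F factors. Pbk, a mitotic kinase, went from 41.9 and 35.2 CPM to 1 and 4 reads (0.0531 and 0.122 CPM), a 397-fold ratio of pooled reads with a counting interval of 169.7 to 1225. Anln, the cleavage-furrow protein anillin, fell from 123 and 110 to 0.637 and 0.306 CPM (log2 difference -8.04 ± 0.35 SE, adjusted p = 3.0e-06, limma). Hmmr, a spindle protein, fell from 57.5 and 45.3 to 0.159 and 0.337 CPM. Its R848 values rest on 3 and 11 reads, so the exact size of such falls is loosely fixed.

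Many regulators that open the cell cycle fell as well. Ccnd1 (cyclin D1), which M-CSF induces in macrophages, fell from 960.2 and 954 to 10.4 and 10.7 CPM (log2 difference -6.51 ± 0.063 SE, adjusted p = 2.7e-18, limma), while Ccnd2 read 27.3 and 26.9 CPM with vehicle and 28.7 and 32.8 CPM with R848. Myc fell from 114 and 117 to 14.9 and 14.8 CPM. The E2F genes differed among themselves. E2f2 fell from 60.5 and 60.0 to 0.159 and 0.276 CPM (log2 difference -8.17 ± 0.24 SE), which rests on 3 and 9 reads with R848. E2f7 fell from 34.1 and 28.0 to 0.0531 and 0.214 CPM and E2f1 from 96.9 and 89.6 to 19.8 and 20.7 CPM. E2f3 and E2f4 did not pass, with E2f4 at 80.9 and 81.2 and 71.2 and 67.1 CPM. Cdkn1a (p21), an inhibitor of CDKs, rose from 244 and 247 to 826 and 909 CPM (log2 difference 1.82 ± 0.049 SE, adjusted p = 1.2e-14, limma), and Cdkn2c (p18) fell from 71.1 and 71.4 to 2.44 and 2.42 CPM. Of 27 tested, 3 were higher (Cdkn1a, Cdkn2b and Mycl) and 17 lower (4 and 12 with centring). These shares were 11.1% higher and 63.0% lower, beside 8.89% and 30.3% of all genes. Myc read 18.3 and 18.9 CPM with PNPi+dG/rG+polyU, close to R848, whereas Ccnd1 read 132 and 117 and E2f2 6.58 and 4.78 CPM there, both higher than with R848 in the direct test.

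**Figure D4:**
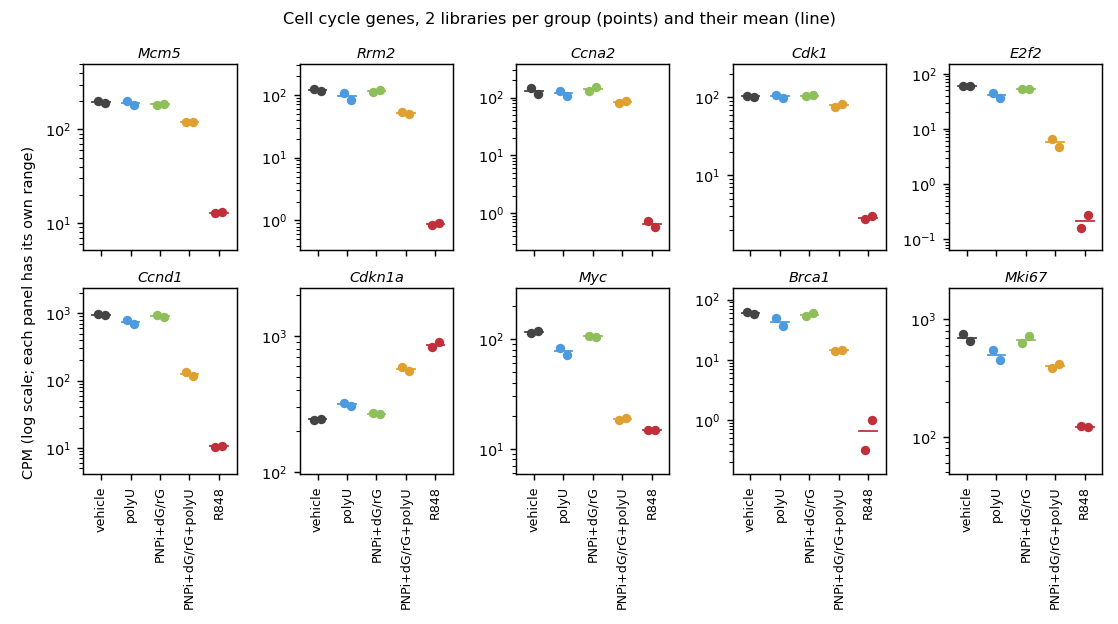
CPM (log axis) of 10 cell cycle genes in each library of the 5 groups. Mcm5, Rrm2, Ccna2, Cdk1, E2f2, Ccnd1, Brca1 and Mki67 are lowest with R848 in every library, Myc is near 14.9 and 14.8 CPM with R848 and 18.3 and 18.9 CPM with PNPi+dG/rG+polyU, and Cdkn1a is higher with R848 than with vehicle.

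Promoters of 4 lowered cell cycle genes are shown because these genes peak at different times of the cycle, Mcm5 before S phase and Cdk1, Ccnb1 and Hmmr in G2 and mitosis. Capitals mark matches, on either strand, to E2F letters (TTTCCCGC, TTTCGCGC, TTTGCCGC or TTTGGCGC), to the CHR element (TTTGAA) and to the CCAAT box. They are the 250 bases upstream of the RefSeq start in GRCm38.p6 on the coding strand, at chr8:75109259-75109508, plus strand for Mcm5, chr10:69352913-69353162, minus strand for Cdk1, chr13:100786487-100786736, minus strand for Ccnb1 and chr11:40733438-40733687, minus strand for Hmmr. The RefSeq and GENCODE starts are 60, 26, 84 and 15 bases apart.
Mcm5: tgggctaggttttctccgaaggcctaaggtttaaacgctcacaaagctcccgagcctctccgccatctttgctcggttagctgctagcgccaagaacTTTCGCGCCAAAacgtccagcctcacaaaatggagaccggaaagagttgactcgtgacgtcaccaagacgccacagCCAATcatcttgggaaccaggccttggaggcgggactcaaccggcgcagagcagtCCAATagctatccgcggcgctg
Cdk1: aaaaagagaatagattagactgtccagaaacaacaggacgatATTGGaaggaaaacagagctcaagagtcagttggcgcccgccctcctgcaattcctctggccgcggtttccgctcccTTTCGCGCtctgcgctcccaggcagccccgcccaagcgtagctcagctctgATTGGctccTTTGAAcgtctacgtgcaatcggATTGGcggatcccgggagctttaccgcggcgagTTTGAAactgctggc
Ccnb1: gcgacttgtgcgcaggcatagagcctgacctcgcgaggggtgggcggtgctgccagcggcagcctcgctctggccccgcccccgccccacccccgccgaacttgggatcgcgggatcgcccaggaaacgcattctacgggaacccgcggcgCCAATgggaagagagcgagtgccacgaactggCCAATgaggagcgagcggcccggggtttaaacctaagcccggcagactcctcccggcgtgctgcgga
Hmmr: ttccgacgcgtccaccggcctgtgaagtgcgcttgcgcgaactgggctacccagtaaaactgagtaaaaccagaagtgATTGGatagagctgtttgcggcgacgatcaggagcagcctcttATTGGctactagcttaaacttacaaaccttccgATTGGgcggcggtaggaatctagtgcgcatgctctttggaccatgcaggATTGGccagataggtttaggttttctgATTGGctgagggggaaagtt

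Mcm5 held overlapping E2F matches at -153 and -149 and CCAAT boxes at -77 and -22. Cdk1 held an E2F match at -131, CHR matches at -71 and -15 and CCAAT boxes at -208, -80 and -48. Ccnb1 held CCAAT boxes at -99 and -67, and Hmmr held 5, the first at -172. In the S phase list E2F letters stood in 8 of 31 promoters (25.8%), against 3.67% of tested genes and 1.86% of all promoters. In the mitosis list CCAAT stood in 24 of 34 (70.6%) and CHR in 10 of 34 (29.4%), against 33.9% and 15.99% of all promoters. In the S phase list CCAAT stood in 19 of 31 (61.3%). These are counts of letters in a fixed window.

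DNA repair genes fell with replication. Of 39 tested, 32 were lower and none higher (24 with centring), with a median log2 difference of -2.84. Brca1, of homologous recombination, fell from 63.4 and 58.4 to 0.319 and 0.980 CPM (log2 difference -6.77 ± 0.52 SE, adjusted p = 6.1e-05, limma). The Fanconi anemia gene Fancd2 fell from 31.0 and 28.9 to 0.319 and 0.245 CPM. The nucleotide excision repair genes Ercc1, Ercc2, Ercc4 and Xpa did not pass the limit, with Ercc1 at 12.96 and 15.1 and 11.5 and 12.3 CPM. Xpc was called lower only without centring.

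Many receptor genes by which resting macrophages clear debris and apoptotic cells fell. Of 28 scavenger and efferocytosis genes tested, 14 were lower and 3 higher (9 and 5 with centring). These shares were 50% lower and 10.7% higher, beside 30.3% and 8.89% of all genes. Mertk, which engages apoptotic cells, fell from 40.3 and 40.6 to 5.36 and 5.66 CPM (log2 difference -2.87 ± 0.1 SE, adjusted p = 2.4e-13, limma), and its ligand gene Gas6 was called lower only without centring. Lrp1, an abundant endocytic receptor, fell from 4899 and 5247 to 1600.1 and 1735 CPM. Havcr2 (TIM-3) fell from 85.5 and 81.7 to 7.12 and 7.29 CPM and Cd300lf from 96.5 and 90.7 to 4.94 and 4.01 CPM (log2 difference -4.39 ± 0.097 SE). Marco, a receptor for bacteria, rose from 14.03 and 15.3 to 56.3 and 57.5 CPM and Olr1, the receptor for oxidized LDL, from 0.449 and 0.112 to 42.0 and 43.5 CPM. Cd36 read 925 and 891 CPM with vehicle and 929 and 925 CPM with R848. Among Fc receptors, the inhibitory Fcgr2b rose from 51.6 and 49.8 to 1374 and 1399 CPM (log2 difference 4.77 ± 0.097 SE), and the activating Fcgr3 read 271 and 282 CPM with vehicle and 288 and 309 CPM with R848. C3, the central complement component, rose from 402 and 415 to 2074 and 2207 CPM, and the C1q genes did not pass the limit.

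Lysosomal genes were called lower in 25.6% of cases, beside 30.3% of all genes tested. Of 39 tested, 10 were lower and 2 higher, but with centring 3 of each were called, and the median of -0.72 lay near the -0.50 of all genes. Lipa, the acid lipase, fell from 1821 and 1832 to 419.8 and 433 CPM (log2 difference -2.10 ± 0.037 SE, adjusted p = 8.9e-17, limma) and Tfeb, a master regulator of lysosomal genes, from 48.4 and 49.7 to 13.4 and 16.4 CPM. Manba was the third call that centring kept. Ctsc, which activates granule proteases, rose from 342 and 332 to 1079.7 and 1078 CPM.

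Regulators of G protein signalling (RGS) fell in 5 of 9 cases and rose in none, under both scales. The share lower was 55.6%, beside 30.3% of all genes. Rgs2 fell from 252 and 261 to 2.02 and 2.08 CPM (log2 difference -6.97 ± 0.064 SE, adjusted p = 2.6e-19, limma) and Rgs1 from 336 and 302 to 25.9 and 26.9 CPM. Against PNPi+dG/rG+polyU 5 were lower with R848 (3 with centring), with Rgs2 at 11.96 and 11.7 CPM there.

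Transcription factors of the myeloid lineage moved in both directions. Of 27 tested, 7 were higher and 9 lower (12 and 9 with centring). Without centring the share lower was 33.3%, near the 30.3% of all genes. With centring the list still had 9 lower, while the count over all 11978 genes fell from 3633 to 2107. Cebpd rose from 21.9 and 26.4 to 328 and 343 CPM (log2 difference 3.799 ± 0.077 SE, adjusted p = 2.0e-15, limma), Cebpb from 209 and 236 to 1036 and 1162 CPM and Spi1 (PU.1), the lineage factor of macrophages, from 381 and 418 to 852 and 919.7 CPM. Cebpa fell from 146 and 160.3 to 37.3 and 36.2 CPM, so the C/EBP genes moved in opposite directions. Mef2c fell from 104 and 95.2 to 7.17 and 6.71 CPM (log2 difference -3.84 ± 0.086 SE) and Klf2, which restrains inflammation in myeloid cells, from 47.0 and 56.1 to 6.32 and 6.55 CPM. Pparg fell from 56.0 and 55.4 to 10.7 CPM in both libraries. Maf and Irf8 did not pass the limit.

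The exporters of cholesterol moved in opposite directions. Of 24 synthesis and uptake genes, 2 were higher and 2 lower (11 and 1 with centring). Abca1, which exports cholesterol to lipid-poor apolipoprotein, rose from 58.4 and 64.8 to 294 and 306 CPM, while the exporter Abcg1 fell from 73.5 and 68.2 to 6.69 and 7.78 CPM (log2 difference -3.29 ± 0.11 SE, adjusted p = 2.6e-12, limma). The desaturase gene Scd2 fell from 55.5 and 54.0 to 4.89 and 4.78 CPM. Apoe rose from 2215 and 2277 to 5317 and 5571 CPM.

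Genes every cell uses changed little. None of 46 tested cytosolic ribosomal protein genes was called in either direction, with a median log2 difference of -0.34, though many of them share reads with pseudogenes. Of 31 proteasome genes 1, Psma6, was called higher, from 115 and 119 to 470 and 482 CPM. Ribosome biogenesis had 1 of 40 higher and 7 lower (1 and 2 with centring), and the tRNA synthetases 1 of 20 lower, Vars. None of 7 mitochondrially encoded mRNAs tested was called.

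**Figure D5:**
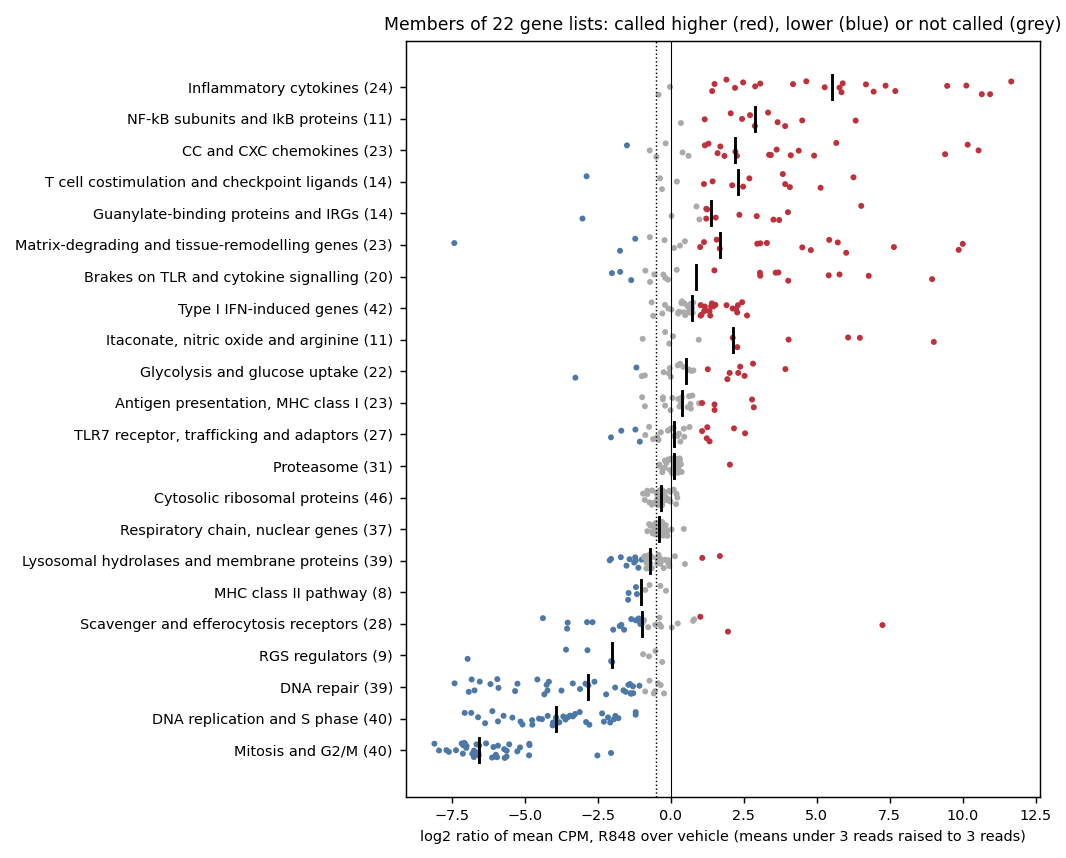
Log2 ratio of R848 to vehicle for each tested member of 22 gene lists, with group means under 3 reads in each library raised to that level, a black bar at each list's median and a dotted line at the all-gene median of -0.50. Cytokine and NF-κB lists lie to the right of 0, the mitosis list has its median at -6.58, and ribosomal protein genes lie within 1 unit of 0.

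All raised and all lowered genes had a similar span, while those changed at least 10-fold differed. Structure was described and not tested. Among protein-coding genes the median genomic span was 24.4 kb for all tested, 27.1 kb for those called higher and 26.8 kb for those called lower. It was 18.0 kb for those raised at least 10-fold and 28.3 kb for those lowered at least 10-fold. The median number of exons was 9, 8, 10, 8 and 11 for these sets in turn. Protein-coding genes made up 90.9% of calls higher and 92.8% of calls lower, beside 93.1% of all genes tested.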

How the data were processed

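RNA of 10 BMDM libraries was made into stranded mRNA libraries and sequenced in 50-base reads. The authors mapped the reads with STAR (2.27a in the submitters' processing notes), counted them on Ensembl 97 genes of GRCm38, and deposited 1 table of values in CPM with 0.0001 added to each. The counting rule for reads on several genes is not given in the sources used here. CPM keeps no gene length and is relative to the reads of each library, so a larger share in raised genes leaves less for the others.

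In each library 100% of low values, after removal of the offset, were whole multiples of 1 read within 0.1 of a step, which gave depths of 14128124 to 38392591 reads. Tests used log2 of the deposited values with limma 3.58.1 and statmod 1.5.0 in R 4.3.3, fitted to all 5 groups with trend and robust estimates, for genes reaching 1 CPM in 2 or more libraries, with Benjamini-Hochberg adjustment over 11978 genes. A gene was called at an adjusted p under 0.05 and at least 2-fold. Differences are on the log2 scale of the deposited values. For Il6 and Pbk, with few reads in a group, the ratio of pooled reads is given with its 95% counting interval. For Il12a and Csf2, with 0 reads with vehicle, a bound against 3 reads in each vehicle library is given. Other genes with few reads in a group are given by their values or fitted difference alone, and the size of such differences is loosely fixed. Intervals cover counting error only. On data simulated with the mean values and depths of these libraries, 200 of 200 changed genes and 0 unchanged genes were called among 11616. The simulation gave every gene the same small spread and changed only well-expressed genes, by more than 2-fold. It raised as many genes as it lowered. A full score under these settings says little about the real data. The real comparison called 4698 genes, and a simulated set with that many changed genes was not tested. Summaries were made in Python 3.11.15 with pandas 2.3.3 and numpy 2.4.6. Symbols and gene positions are from GENCODE M21 (Ensembl 96), which named 55480 of the 55573 identifiers, and promoters are RefSeq sequences of GRCm38.p6.

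The gene lists and the members of this comparison were chosen with earlier results of these data known. Named genes are the 15 largest ratios of means in each direction (means under 3 reads per library raised to that level, at least 10 CPM in both libraries of the higher group), members of the lists, and the 10 most-read genes of the R848 libraries. Each of these choices was changed singly: the pseudocount (0.1 or 1), the filter (none, or a mean of 10 CPM or more), the scale (centred on the median gene), the moderation (plain eBayes), the libraries fitted (the 2 groups alone, or all but 1 library) and blocking by replicate number. A pseudocount of 1 joined to centring was added after the data were seen. Some members of the lists are not reported here by name.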

Additional observations from a re-analysis of the deposited data

How the results depend on the processing

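The counts depended on the scale, the filter and a pseudocount of 1 more than on any library. For R848 versus vehicle, 4698 genes were called, 1065 higher and 3633 lower. A mean of at least 10 CPM, which tests fewer genes, gave 2729 in all, 661 higher and 2068 lower. A pseudocount of 1 gave 3985 in all, 1003 higher and 2982 lower. Centring gave 1792 higher and 2107 lower, and a pseudocount of 1 with centring, an alternative chosen after the data were seen, gave 1706 and 1460. The median difference of -0.50 became -0.45 with a pseudocount of 1, -0.24 without a filter, -0.42 under the stricter filter, 0.095 with centring and 0.12 with both a pseudocount of 1 and centring. For R848 versus PNPi+dG/rG+polyU, 2481 genes were called, 462 higher and 2019 lower. A mean of at least 10 CPM gave 1256, 240 and 1016, a pseudocount of 1 gave 1278 lower, no filter gave 799 higher, centring gave 852 and 1194, and a pseudocount of 1 with centring gave 1490 in all, 821 higher and 669 lower. Apart from the filters and the scale, whose construction changes the genes tested or the zero point, the cause was not tested.

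Leaving out 1 library at a time gave 4575 to 4757 calls against vehicle, 1023 to 1072 higher and 3535 to 3734 lower, with medians of -0.52 to -0.48. Against PNPi+dG/rG+polyU it gave 2376 to 2554 calls, 420 to 487 higher and 1941 to 2134 lower. Where this left a group with 1 library, its spread was taken from the other groups. Single calls moved in lists that had 0 to 2 calls of a kind. Without vehicle replicate 2 the single endothelial call higher, Pecam1, was lost, and without either vehicle replicate 1 neutrophil call lower remained of 2. The 30 genes with the largest ratios kept their calls under all alternatives run, except that Il6 (adjusted p = 0.059) and Csf3 (adjusted p = 0.097) were not called by limma when only the 2 groups were fitted, each with a vehicle library at 0 reads.

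Replicate numbers did not pair the samples, since deviations of vehicle and R848 libraries with the same number correlated at r = 0.053 over 8459 genes (-0.286 to 0.109 over all pairs of groups). With the replicate number as a block, 4688 genes were called, 1060 higher and 3628 lower, and 458 and 2020 against PNPi+dG/rG+polyU. The planned tests on recovered read counts (edgeR, DESeq2) were not run. Depth limits genes near 3 reads: 132 of the genes called higher had at most 3 reads in each vehicle library and 104 of those called lower had at most 3 in each R848 library.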

Other observations

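Purine receptors, the sensors of extracellular nucleotides, were among the groups not described above. Adora2a, the adenosine receptor that restrains macrophages, rose from 0.393 and 0.337 to 87.7 and 89.4 CPM (log2 difference 7.93 ± 0.34 SE, adjusted p = 3.9e-09, limma) and Adora2b from 7.91 and 9.78 to 169 and 175 CPM. P2rx7, the ATP-gated channel that triggers NLRP3, fell from 56.9 and 58.3 to 9.93 and 10.6 CPM, P2ry1 from 19.9 and 22.6 to 1.06 and 1.13 CPM and the ectonucleotidase gene Entpd1 (CD39) from 62.1 and 65.5 to 19.2 and 18.1 CPM. Of 13 tested, 4 were higher and 6 lower (4 and 5 with centring), or 30.8% and 46.2%, beside 8.89% and 30.3% of all genes. Of the 13, 1 passed the limit on low values only through the R848 libraries. Among enzymes that handle guanosine, Pnp, the target of ulodesine, rose from 46.3 and 47.8 to 124 and 136 CPM and Gda from 46.9 and 40.2 to 141 and 136 CPM, while Hprt read 132 and 131 CPM with vehicle and 75.8 and 78.2 CPM with R848. The lysosomal nucleoside transporter gene Slc29a3 fell from 86.1 and 85.6 to 21.1 and 19.6 CPM (log2 difference -2.08 ± 0.061 SE), and with centring it was still called lower. Samhd1, which degrades deoxynucleotides, read 271 CPM in both libraries with vehicle and 193 and 211 CPM with R848 and 520 and 543 CPM with PNPi+dG/rG+polyU.

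Iron and inflammasome genes moved at single members. Lcn2, which binds bacterial iron carriers, rose from 1.85 and 2.42 to 499 and 564 CPM (log2 difference 7.97 ± 0.31 SE, adjusted p = 4.7e-08, limma), and it read 25.7 and 38.2 CPM with PNPi+dG/rG+polyU. Slc39a14, a metal importer, rose from 69.7 and 75.4 to 720.1 and 752 CPM and the ferrireductase gene Steap3 fell from 136 and 130.1 to 9.35 and 11.1 CPM. Of 17 tested, 6 were higher and 1 lower (9 and 1 with centring, 2 lower without vehicle replicate 2 or without either R848 replicate). Among the 17, 1 passed the limit on low values only through the R848 libraries. Nlrp3 rose from 89.7 and 88.1 to 1231 and 1274 CPM and Casp4 (caspase-11) from 12.2 and 12.8 to 137 and 144 CPM, whereas Nlrp1b fell from 27.6 and 32.3 to 0.903 and 0.888 CPM (log2 difference -5.06 ± 0.13 SE) and Gsdme from 17.1 and 19.6 to 2.39 and 3.25 CPM. Among survival genes Bcl2 fell from 45.3 and 43.5 to 5.74 and 4.96 CPM, while Birc3 rose from 27.6 and 26.6 to 393 and 389 CPM and Cflar from 165 and 163 to 1048 and 1017 CPM. Bcl2a1b rose from 3.14 and 2.98 to 62.4 and 63.5 CPM, though its copies share reads. Of the 296 tested zinc finger genes named Zfp with a number, 11 were higher and 101 lower (26 and 43 with centring), which is 34.1% lower beside 30.3% of all genes.

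Some raised genes stood next to each other in the genome. Runs of at least 4 adjacent tested genes called higher included 7 genes of the Ms4a cluster on chromosome 19 (11375523 to 11604849), the 4 genes Gbp5, Gbp7, Gbp3 and Gbp2 on chromosome 3, the 4 Trim30 genes on chromosome 7, and Il19, Il10, Mapkapk2 and Gm37084 on chromosome 1. These runs were chosen after their values were seen and no test of their number was made.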
